A study of Mus musculus with 4 samples.

Results

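Open chromatin was examined at 9 genes that encode regulators of lipid metabolism: the peroxisome proliferator-activated receptors (PPARs) Ppara, Ppard and Pparg, the retinoid X receptors (RXRs) Rxra and Rxrb, the liver X receptors (LXRs) Nr1h3 and Nr1h2, and the sterol regulatory element-binding proteins (SREBPs) Srebf1 and Srebf2. They are 9 of 21883 protein-coding genes in the RefSeq table of the mouse assembly GRCm38.p6 (mm10). A called peak belonged to one of them when it overlapped the gene body extended by 10 kb on each side, and peaks from different libraries were joined into one region where they overlapped by 1 bp or more. This gave 38 of the 45299 regions found over all libraries.

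The data came from ATAC-seq, in which the transposase Tn5 cuts and tags accessible DNA. Mice lacking Sphk2 (Sphk2 KO, 2 libraries), the gene of a kinase that makes sphingosine 1-phosphate, were compared with wild-type mice (WT, 2 libraries). Mice of both genotypes carried EL4 tumour cells, a mouse T-cell lymphoma line, for 14 days, and Gr1+CD11b+ cells, called myeloid-derived suppressor cells in the labels, were then sorted from their ascitic fluid. Each library was made from 20000 cells with 40% of the recommended Tn5. Strain, age, sex and the construction of the knockout allele are not given in the sources used here. The labels call the libraries biological replicates without tying them to animals, so p-values measure only the spread between libraries, and with 2 against 2 the exact permutation test cannot give a p below 0.333.

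PPARs are nuclear receptors that bind fatty acids and their derivatives, pair with an RXR, and turn on genes of fatty acid uptake, oxidation and storage. LXRs bind oxidised cholesterol, also pair with an RXR, and in macrophages turn on genes of cholesterol efflux as well as Srebf1. SREBPs are made as membrane proteins of the endoplasmic reticulum. When sterols are scarce they are carried to the Golgi and cut, and the released part enters the nucleus and drives genes of cholesterol and fatty acid synthesis.

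The Sphk2 KO libraries held 25877428 and 27686223 retained fragments and 20759 and 27446 peaks, against 33859480 and 34443062 fragments and 31507 and 31843 peaks in the WT libraries. The median −log10 q of all peaks was 15.7 and 19.1 in Sphk2 KO and 12.0 and 13.8 in WT, and median fold enrichment 6.03 and 6.01 in Sphk2 KO and 5.19 and 5.11 in WT. Sphk2 itself had a region at chr7:45715043-45716683 that both Sphk2 KO libraries called and both WT libraries lacked (−log10 q 26.4 and 42.2), and one at chr7:45717303-45718352 in all 4 (28.0 and 70.5 in Sphk2 KO, 61.6 and 73.5 in WT). Which part of the gene was deleted is unstated in the labels, so these peaks do not check the labels. Peaks lay within 1 kb of a start of all 7 common myeloid marker genes in every library. They did so for 7 and 9 of 12 granulocytic markers in the Sphk2 KO libraries, against 8 and 6 in WT, with none at Elane, Ly6g or Mpo, and for 5 and 6 of 10 monocytic markers in Sphk2 KO, against 8 and 9 in WT, with none at Ccr2. T-cell markers had such a peak at 1 and 2 of 12 genes in Sphk2 KO, against 2 and 5 in WT, with none at Cd3d, Cd3e, Cd3g, Cd8a, Lck or Tcf7, and the 6 B-cell markers had none. Depth, peak number, median score and the monocytic markers thus moved with genotype, and their part in each difference given here was not tested. In sorted bulk cells, fewer cells with an open region and less opening per cell cannot be told apart.

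Promoter sequences show which letters stood before the starts, whether or not a peak lay over them. The 250 bases before 7 start sites, 5′ to 3′ on the gene's strand, are from the RefSeq promoter table for GRCm38.p6, with motif matches in capitals. Motifs were searched on both strands: the nuclear receptor half-site AGGTCA, its direct repeats spaced by 1 base (AGGTCANAGGTCA) and by 4 bases (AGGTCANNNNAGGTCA) as classically bound by PPAR with RXR and by LXR with RXR, the sterol regulatory element core TCACCCCA, the CCAAT box CCAAT, the GC box GGGCGG and the E-box CACGTG. The promoters of Srebf2 and of Srebf1 starts 2 and 3 are shown because their peaks were compared between genotypes, that of Nr1h2 because it had a strong peak and none of these letters, that of Nr1h3 because its peak was weak, and those of Ppara and Rxra because no library had a peak there.
Srebf2 start 1, chr15:82147019-82147268, plus strand: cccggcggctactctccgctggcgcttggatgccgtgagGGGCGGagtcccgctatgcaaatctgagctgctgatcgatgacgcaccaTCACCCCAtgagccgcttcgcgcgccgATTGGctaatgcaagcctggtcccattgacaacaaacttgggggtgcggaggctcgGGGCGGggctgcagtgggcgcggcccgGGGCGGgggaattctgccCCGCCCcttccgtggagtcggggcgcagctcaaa
Srebf1 start 2, chr11:60220628-60220877, minus strand: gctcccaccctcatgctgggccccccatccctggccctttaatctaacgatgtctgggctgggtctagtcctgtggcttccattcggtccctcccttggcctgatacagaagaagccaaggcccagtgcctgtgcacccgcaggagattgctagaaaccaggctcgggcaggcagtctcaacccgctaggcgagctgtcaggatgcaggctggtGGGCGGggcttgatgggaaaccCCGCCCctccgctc
Srebf1 start 3, chr11:60210472-60210721, minus strand: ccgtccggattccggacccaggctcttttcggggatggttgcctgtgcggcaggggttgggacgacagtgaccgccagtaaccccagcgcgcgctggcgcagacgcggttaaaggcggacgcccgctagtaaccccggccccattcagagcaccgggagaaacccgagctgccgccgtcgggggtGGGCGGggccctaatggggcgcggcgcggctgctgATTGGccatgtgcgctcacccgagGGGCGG
Nr1h2 start 1, chr7:44553966-44554215, minus strand: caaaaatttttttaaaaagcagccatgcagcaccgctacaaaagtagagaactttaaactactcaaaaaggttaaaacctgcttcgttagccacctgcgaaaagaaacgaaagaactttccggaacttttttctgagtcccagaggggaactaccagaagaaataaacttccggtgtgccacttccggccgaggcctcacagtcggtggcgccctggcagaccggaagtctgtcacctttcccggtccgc
Nr1h3 start 1, chr2:91195117-91195366, minus strand: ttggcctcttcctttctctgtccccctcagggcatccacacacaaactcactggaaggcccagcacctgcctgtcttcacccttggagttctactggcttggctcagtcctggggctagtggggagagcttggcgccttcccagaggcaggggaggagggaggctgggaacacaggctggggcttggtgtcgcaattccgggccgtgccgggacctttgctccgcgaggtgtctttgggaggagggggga
Ppara start 1, chr15:85735526-85735775, plus strand: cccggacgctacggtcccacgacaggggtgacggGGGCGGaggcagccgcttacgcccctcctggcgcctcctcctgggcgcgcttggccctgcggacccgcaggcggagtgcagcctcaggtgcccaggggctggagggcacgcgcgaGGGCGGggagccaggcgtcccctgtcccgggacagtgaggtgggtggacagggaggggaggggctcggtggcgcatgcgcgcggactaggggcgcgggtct
Rxra start 1, chr2:27676951-27677200, plus strand: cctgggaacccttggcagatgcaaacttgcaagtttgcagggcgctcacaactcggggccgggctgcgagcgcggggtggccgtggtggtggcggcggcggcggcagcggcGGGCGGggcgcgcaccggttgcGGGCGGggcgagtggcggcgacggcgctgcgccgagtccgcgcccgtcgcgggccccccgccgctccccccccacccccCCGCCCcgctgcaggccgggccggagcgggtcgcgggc

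The Srebf2 promoter held the sterol element core with its first base at position −162 from the start, beside a CCAAT box and 4 GC boxes. It was the only one of the 16 promoters of the 9 genes with that core, which occurred in 1.26% of all 21262 promoters of this length. GC boxes were in 10 of the 16 promoters (42.6% of all promoters), CCAAT boxes in 6 (35.4%) and the receptor half-site in 3 (12.8%), at Pparg starts 1 and 2 and Rxra start 2. Neither direct repeat nor the E-box was found in the 16 promoters. Over all promoters the repeat spaced by 1 base occurred in 0.0423%, the repeat spaced by 4 bases in 0% and the E-box in 6.63%. GC boxes stood both in promoters with strong peaks, such as Srebf2, and in those without a peak, Ppara and Rxra. A match is a run of letters and not a measured binding site.

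The regions of the 9 genes numbered 21 and 29 in the Sphk2 KO libraries, against 27 and 34 in the WT libraries. Over the whole genome, 20260 and 27217 regions were called in the Sphk2 KO libraries, against 30799 and 31455 in the WT libraries. For the 9 genes the ranges overlapped, and the means of 25.0 ± 5.66 in Sphk2 KO and 30.5 ± 4.95 in WT (SD, n = 2 each) differed by −5.5, which lay within the spread between libraries (two-sided exact permutation p = 0.667). The difference was −0.5 when every library was held to the same number of top peaks, and ran from −10.0 without Sphk2 KO replicate 2 or WT replicate 1 to −2.0 without WT replicate 2 and −1.5 without Sphk2 KO replicate 1. Of the 38 regions, 19 were called in all 4 libraries, and the same was true of 48.9% of the regions within 10 kb of any protein-coding gene. Only 1 region, in Pparg, had a peak in each Sphk2 KO library and none in WT (Sphk2 KO-only), a pattern of 0.62% of such regions. Another 2, in Pparg and Nr1h3, had a peak in each WT library and none in Sphk2 KO (WT-only), as did 5.45% of such regions. A further 6 regions were missing only in Sphk2 KO replicate 1 (8.36% of such regions), the library with the fewest fragments, and 6 were called only in WT replicate 2 (10.8%), the library with the most. Sphk2 KO replicate 2 was alone in calling 2 regions (7.04%) and Sphk2 KO replicate 1 in calling 1 (1.94%). The genotype-specific counts are small and depend on single libraries: the Sphk2 KO-only count was 3 without Sphk2 KO replicate 1 and 2 without Sphk2 KO replicate 2, and the WT-only count was 8 without Sphk2 KO replicate 2 and 9 without WT replicate 1, since each then needs fewer libraries. The lists hold peaks and no read counts, so a region without a call may be open below the threshold.

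By position, 11 regions lay within 1 kb of a listed start of the gene, 15 elsewhere in the gene body and 12 outside it. Of these, 8 of 11, 5 of 15 and 6 of 12 were called in all 4 libraries. Some regions are shared with neighbours: 4 of the 12 outside regions and 2 of the 15 inside ones lay within 1 kb of another gene's start. A peak near a start was present in all 4 libraries at 6 of the 9 genes (Ppard, Rxrb, Nr1h2, Nr1h3, Srebf1 and Srebf2), against 42.7% of all protein-coding genes. By library this was 6 and 6 of 9 genes in Sphk2 KO and 6 and 7 in WT, where 43.5% and 48.2% of all genes had one in Sphk2 KO and 48.9% and 49.9% in WT. Ppara and Rxra had none in any library (47.8% of all genes), and Pparg had one in WT replicate 2 alone.

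**Figure D1:**
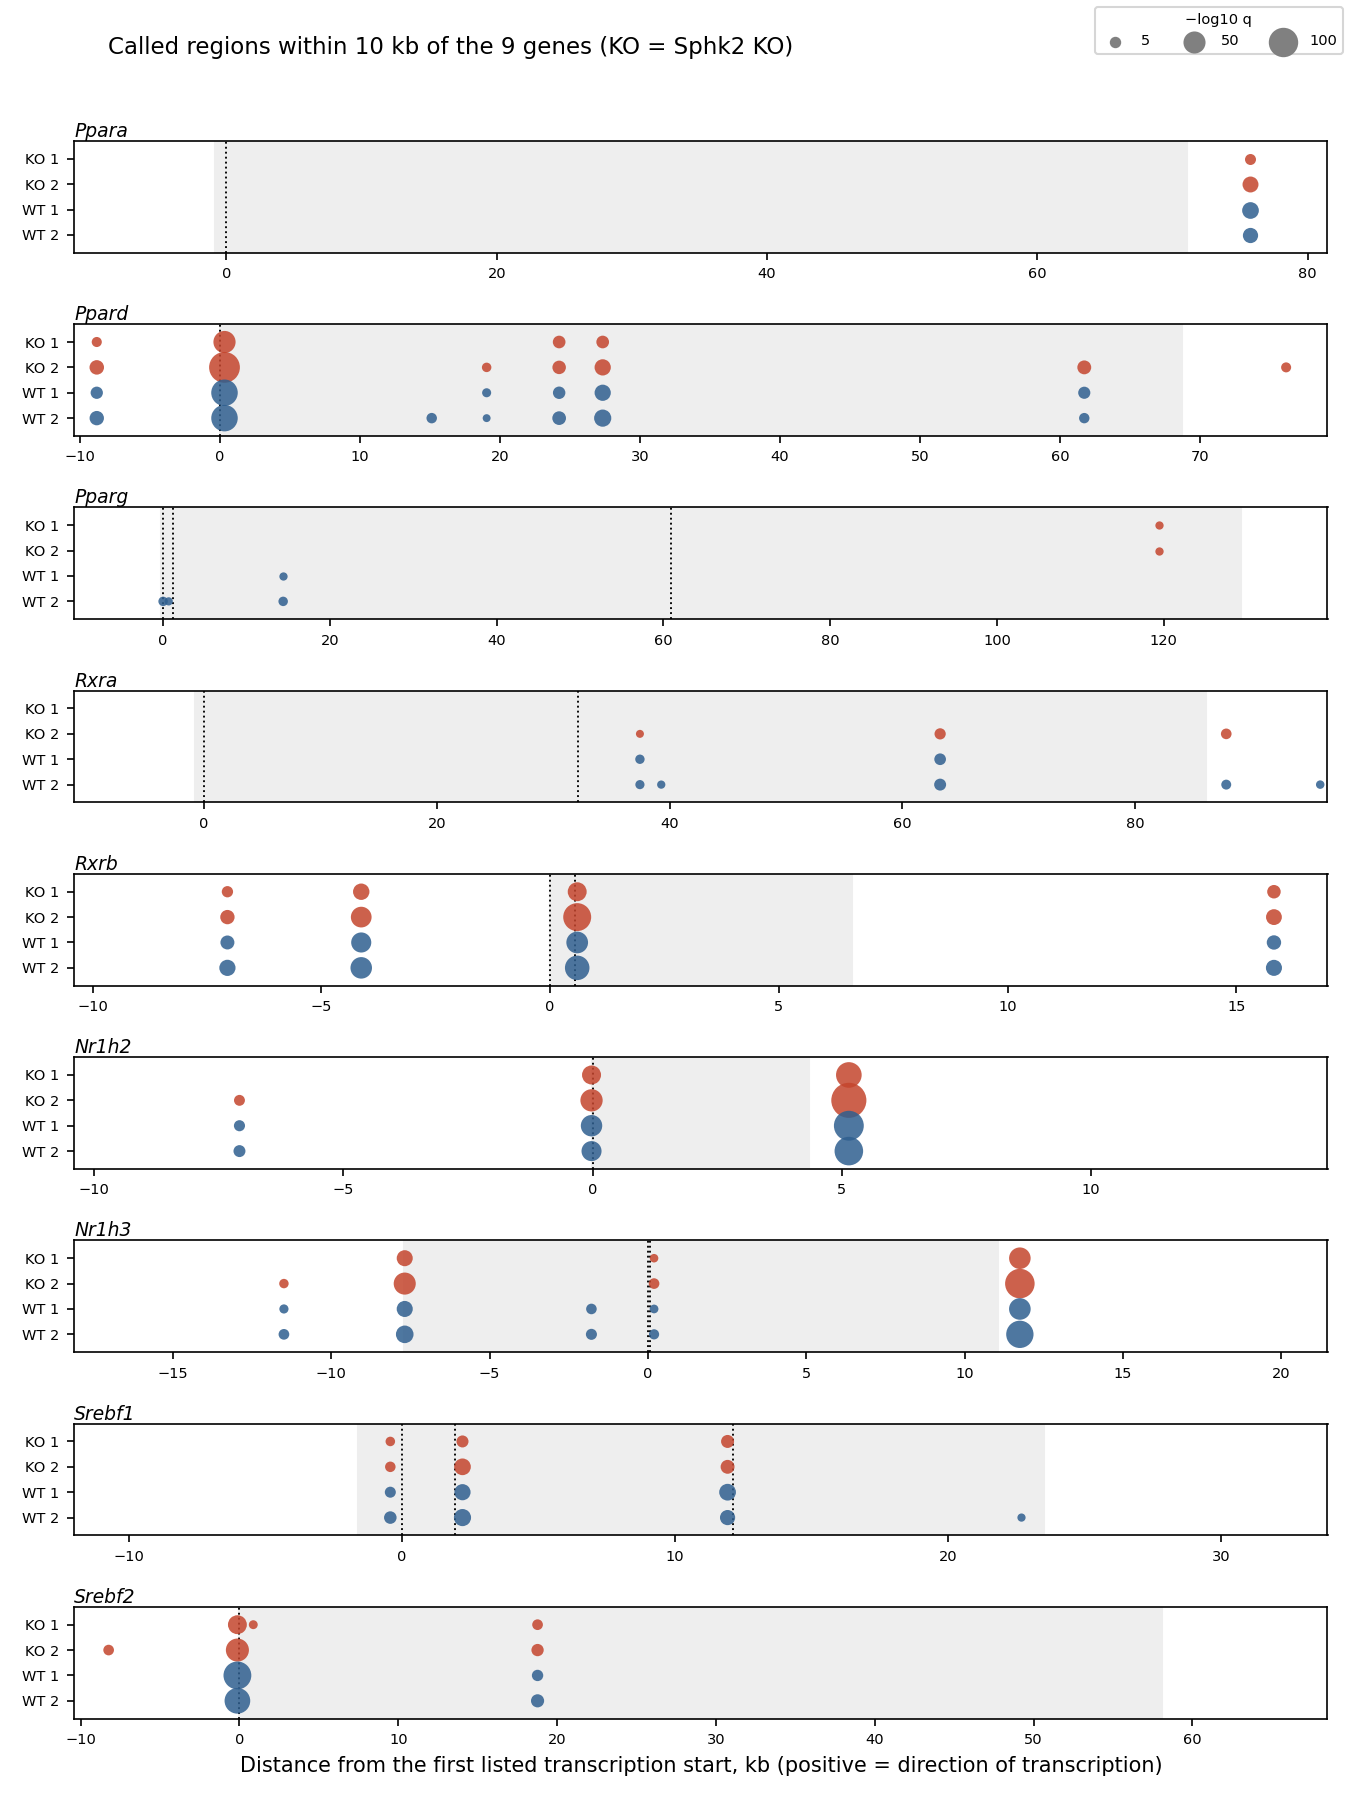
Called regions of the 9 genes by distance from the first listed start in kb, with 1 row per library (Sphk2 KO above WT), dot area rising with −log10 q, the gene body in grey and starts as dotted lines. Ppara and Rxra have no dot at a start, Rxra has none at all in Sphk2 KO replicate 1, and the regions seen in both libraries of one genotype alone are 1 in Sphk2 KO (Pparg) and 2 in WT (Pparg and Nr1h3).

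Ppara, the PPAR that drives fatty acid oxidation in liver, covers chr15:85734910-85806851 on the plus strand. Its only region, chr15:85811019-85811951, lay past its far end, at the start of the neighbouring gene Cdpf1. There −log10 q, the caller's confidence that a peak exceeds local background, was 9.97 and 29.1 in Sphk2 KO and 32.7 and 25.9 in WT. Sphk2 KO replicate 1 was low and the other 3 libraries were alike, and the values of the genotypes overlapped. The Ppara gene body itself held no called peak.

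Ppard, the widely expressed PPAR, covers chr17:28232754-28301469 on the plus strand and had the most regions of the 9 genes, 8 in all, with 4 and 7 in Sphk2 KO and 6 and 7 in WT. Its start region, chr17:28232491-28233686, had −log10 q of 63.3 and 129 in Sphk2 KO and 93.8 and 93.6 in WT, with fold enrichments over local background of 9.15 and 10.5 in Sphk2 KO and 10.1 and 9.19 in WT. By −log10 q it ranked 2527 and 2386 in the Sphk2 KO lists and 2513 and 3033 in the WT lists, and these ranks overlapped. The gene table used here gives no exons. A region inside the gene body, chr17:28259775-28260426, had −log10 q of 15.7 and 30.6 in Sphk2 KO and 30.4 and 35.0 in WT. Another inside region, chr17:28294002-28294991, was not called in Sphk2 KO replicate 1 and had 20.2 in Sphk2 KO replicate 2, against 13.8 and 8.07 in WT.

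Pparg, the PPAR of fat cells that also acts in macrophages, covers chr6:115360879-115490404 on the plus strand. It held 4 regions, all weak and none called in all 4 libraries. At start 1 a peak was called only in WT replicate 2 (−log10 q 5.42, fold enrichment 3.93). The WT-only region, chr6:115375395-115375688, lay 13046 bp inside the gene from start 2 and had −log10 q of 2.38 and 5.42 and fold enrichments of 3.09 and 3.93. The Sphk2 KO-only region, chr6:115480300-115480783, lay near the far end of the gene and had −log10 q of 2.39 and 2.47 and fold enrichments of 3.26 and 3.12. Both regions stood in the lower part of their lists: the Sphk2 KO-only region ranked 19619 of 20759 and 25127 of 27446 peaks, and the WT-only region 27619 of 31507 and 22642 of 31843. At a −log10 q of at least 5 in every library, the Sphk2 KO-only region was no longer called and the WT-only region was no longer called in both WT libraries.

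Rxra, the main RXR of liver and myeloid cells, covers chr2:27676445-27763319 on the plus strand. No library had a peak near either of its starts, and Sphk2 KO replicate 1 had no peak anywhere in its window, against 3 regions in Sphk2 KO replicate 2, 2 in WT replicate 1 and 5 in WT replicate 2. The strongest, chr2:27740191-27740687 inside the gene, had −log10 q of 10.7 in Sphk2 KO replicate 2 and 12.1 and 13.1 in the WT libraries. The next inside region, chr2:27714250-27715045, had 1.74 in Sphk2 KO replicate 2, close to the lowest score a list holds, and 5.21 and 4.63 in WT. Both regions were among the 6 missing in Sphk2 KO replicate 1 alone.

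Rxrb, the RXR encoded within the major histocompatibility complex, covers chr17:34031812-34038403 on the plus strand and had the same 4 regions in every library. Its start region, chr17:34031396-34033414, also holds the start of Slc39a7, so that its score cannot be given to one gene. It had −log10 q of 44.1 and 105 in Sphk2 KO and 60.3 and 79.1 in WT, with Sphk2 KO replicates at both extremes. The other regions lay outside the gene: one at the start of Ring1 had 10.9 and 22.1 in Sphk2 KO and 20.6 and 30.4 in WT, and one at the start of H2-Ke6 had 31.3 and 54.3 in Sphk2 KO and 50.7 and 59.2 in WT. The fourth region, chr17:34047202-34048063, had 18.8 and 28.6 in Sphk2 KO and 22.3 and 29.7 in WT.

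Nr1h3 encodes LXRα, the LXR of macrophages and liver, and covers chr2:91184061-91202829 on the minus strand. The peak at its start, chr2:91194668-91195177, was weak in every library, with −log10 q of 3.03 and 8.86 in Sphk2 KO and 3.49 and 7.45 in WT. Only the peak of Sphk2 KO replicate 2 reached into the 250 bases printed for start 1, and no genotype stood apart. A region 1522 bp upstream of start 1, chr2:91196638-91197162, was WT-only (−log10 q 8.65 and 10.1, fold enrichment 5.06 and 4.91, ranks 18240 and 18146). It lies inside the annotated gene body, and unlike the WT-only region of Pparg it was still WT-only at a −log10 q of at least 5, but not at 10, which WT replicate 1 did not reach. The strong regions of the window lay at the starts of neighbours. At Madd the scores were 59.4 and 118 in Sphk2 KO and 59.8 and 100 in WT. At Acp2, chr2:91202449-91203139, where the 5′ edge of the annotated Nr1h3 gene body also lies, they were 29.5 and 62.6 in Sphk2 KO and 29.7 and 37.1 in WT, with fold enrichments of 9.62 and 11.6 in Sphk2 KO and 8.15 and 8.01 in WT.

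Nr1h2 encodes LXRβ, the LXR found in most tissues, and covers chr7:44549616-44553968 on the minus strand, 1.16 Mb from Sphk2 on the same chromosome. Its start region, chr7:44553535-44554437, had −log10 q of 44.5 and 63.9 in Sphk2 KO and 58.5 and 50.3 in WT, and the genotypes overlapped. A region past its far end, chr7:44548546-44549098 at the start of Pold1, had the highest score of the 38 in every library, with 87.2 and 170 in Sphk2 KO and 121 and 110 in WT. The third region, chr7:44560844-44561259, was missing in Sphk2 KO replicate 1 and had 9.67 in Sphk2 KO replicate 2, against 10.3 and 13.1 in WT. At their starts the LXR genes thus differed in the same way in every library, with a strong Nr1h2 region and a weak Nr1h3 region.

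Srebf1, whose products SREBP-1a and SREBP-1c drive mainly fatty acid synthesis, covers chr11:60199084-60224186 on the minus strand and has 3 listed starts, each with a region called in all 4 libraries. The region nearest start 1, chr11:60222810-60223207, had −log10 q of 5.61 and 8.43 in Sphk2 KO and 10.0 and 15.2 in WT. At start 2, chr11:60219811-60220919, the scores were 13.3 and 32.6 in Sphk2 KO and 30.2 and 34.8 in WT. At start 3, chr11:60210332-60210981, they were 16.9 and 20.3 in Sphk2 KO and 32.9 and 25.7 in WT. At starts 1 and 3 both Sphk2 KO scores lay below both WT scores, while at start 2 Sphk2 KO replicate 1 was low and replicate 2 lay between the WT scores. Such scores depend on depth, and how many of all start regions they separate was not computed. Fold enrichment did not separate the genotypes at start 3, with 6.70 and 6.54 in Sphk2 KO and 8.51 and 6.58 in WT, nor at start 2, with 5.57 and 7.19 in Sphk2 KO and 6.86 and 6.63 in WT. At start 1 it was 3.86 and 3.80 in Sphk2 KO and 4.06 and 4.41 in WT, without overlap.

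Srebf2, whose product drives mainly cholesterol synthesis and uptake, covers chr15:82147269-82205379 on the plus strand. Its start region, chr15:82146656-82147632, spans the promoter printed with the sterol element core and had −log10 q of 43.9 and 69.1 in Sphk2 KO and 104 and 87.4 in WT. It ranked 4380 and 5779 in the Sphk2 KO lists, against 2031 and 3423 in the longer WT lists. Both Sphk2 KO libraries were lower than both WT libraries on score and rank. Fold enrichment was 8.64 and 8.22 in Sphk2 KO and 11.7 and 8.71 in WT, with WT replicate 1 far above the other 3, which lay close together. The inside region chr15:82165427-82166658 had −log10 q of 8.99 and 14.3 in Sphk2 KO and 11.1 and 17.4 in WT, which overlapped. Srebf2 had 4 regions in all, with 3 and 3 in Sphk2 KO and 2 and 2 in WT. A region 568 bp past the start, chr15:82147837-82148450, was called only in Sphk2 KO replicate 1 (−log10 q 3.95). Another outside the gene, chr15:82138702-82139372, was called only in Sphk2 KO replicate 2 (8.86).

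**Figure D2:**
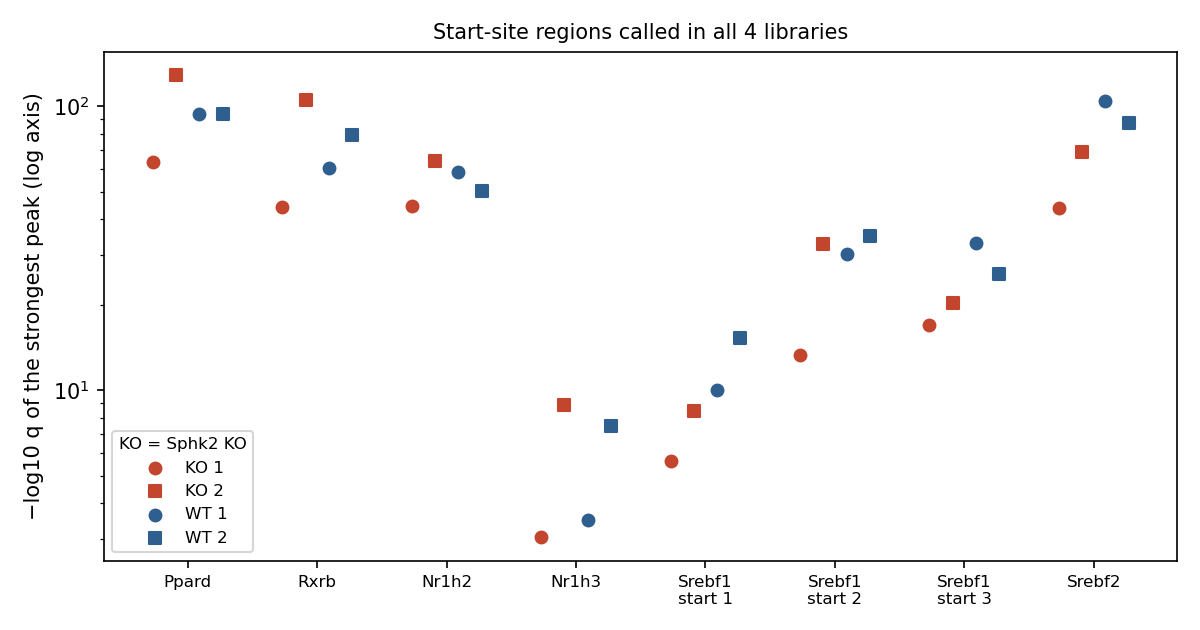
Caller's −log10 q (log axis) of the strongest peak in each start-site region called in all 4 libraries, with Sphk2 KO libraries left of WT libraries for each gene. Both Sphk2 KO points lie below both WT points at Srebf2 and at Srebf1 starts 1 and 3, and the points of Ppard, Rxrb, Nr1h2 and Nr1h3 interleave. Scores depend on depth, and the share of all start regions separated by score was not computed. By within-library rank, Srebf1 start 3 overlaps between genotypes.

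Scores depend on depth, so the genotypes were compared by rank. Each region called in all 4 libraries was ranked by −log10 q in each library among the 16973 such regions, and the rank was written as a percentage, 0 being the strongest, so that a positive difference means a weaker rank in Sphk2 KO and a negative one a stronger rank. Of the 19 regions of the 9 genes, 6 ranked lower in both Sphk2 KO libraries than in both WT libraries and 2 ranked higher, while 11 overlapped. Over all regions within 10 kb of a gene, 21.2% ranked lower and 21.6% ranked higher in this sense. The median difference, Sphk2 KO minus WT, over the 19 regions was −0.605 percentage points, with 9 positive and 10 negative differences, against −0.0162 over all such regions. With one library left out, 8 to 10 regions ranked lower (10 without Sphk2 KO replicate 1) and 4 to 7 ranked higher (7 without Sphk2 KO replicate 1 or WT replicate 2, 6 without Sphk2 KO replicate 2, 4 without WT replicate 1), since fewer ranks can then overlap. Of the 8 start regions 3 ranked lower in Sphk2 KO and none ranked higher, against 22.9% and 17.2% of all start regions. Ranked by fold enrichment, none of the 8 was lower and the Ppard and Rxrb starts were higher, against 18.7% and 16.0% of all start regions.

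The Srebf2 start region ranked at 25.8% and 34.0% in Sphk2 KO and at 11.9% and 20.1% in WT, a difference of 13.9 percentage points towards weaker rank in Sphk2 KO. The 5th to 95th percentile of all start regions ran from −10.1 to 13.5, so this difference lay just past its upper end. Srebf1 start 2 ranked at 66.3% and 60.4% in Sphk2 KO and 54.5% and 54.9% in WT (difference 8.67), and start 1 at 90.2% and 94.5% in Sphk2 KO and 88.4% and 82.8% in WT (6.78). Without Sphk2 KO replicate 1 the difference at start 2 was 4.78, and that at start 1 was 10.4 without Sphk2 KO replicate 1, 10.3 without WT replicate 1 and 4.21 without WT replicate 2. Start 3 ranked at 57.9% and 76.1% in Sphk2 KO and 51.4% and 66.2% in WT, with overlapping ranks, and its difference of 8.23 turned to −0.835 without Sphk2 KO replicate 2. The inside Ppard region ranked at 60.7% and 62.6% in Sphk2 KO and 54.3% and 54.6% in WT (7.24). The remaining regions with weaker ranks in Sphk2 KO were those at the Ring1 and H2-Ke6 starts beside Rxrb, with differences of 8.83 and 5.18.

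Ranks ran the other way at the Acp2 start in the Nr1h3 window, at 39.3% and 37.5% in Sphk2 KO and 55.2% and 52.3% in WT (difference −15.4), and at the Pold1 start beside Nr1h2, at means of 7.43% in Sphk2 KO and 10.6% in WT (−3.19). Each of the 8 non-overlapping differences had an exact permutation p of 0.333, the smallest that 2 against 2 libraries can give. When regions were ranked by fold enrichment, 2 regions were lower in Sphk2 KO (the inside Ppard region and the Ring1 start, background 17.9%) and 3 were higher (the Ppard and Rxrb starts and the Acp2 start, background 18.5%). By that score the Srebf2 start differed by 13.2 percentage points and Srebf1 starts 1 and 2 by 1.74 and 1.49, all with overlapping ranks. The Acp2 start differed by −26.8 and still did not overlap.

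**Figure D3:**
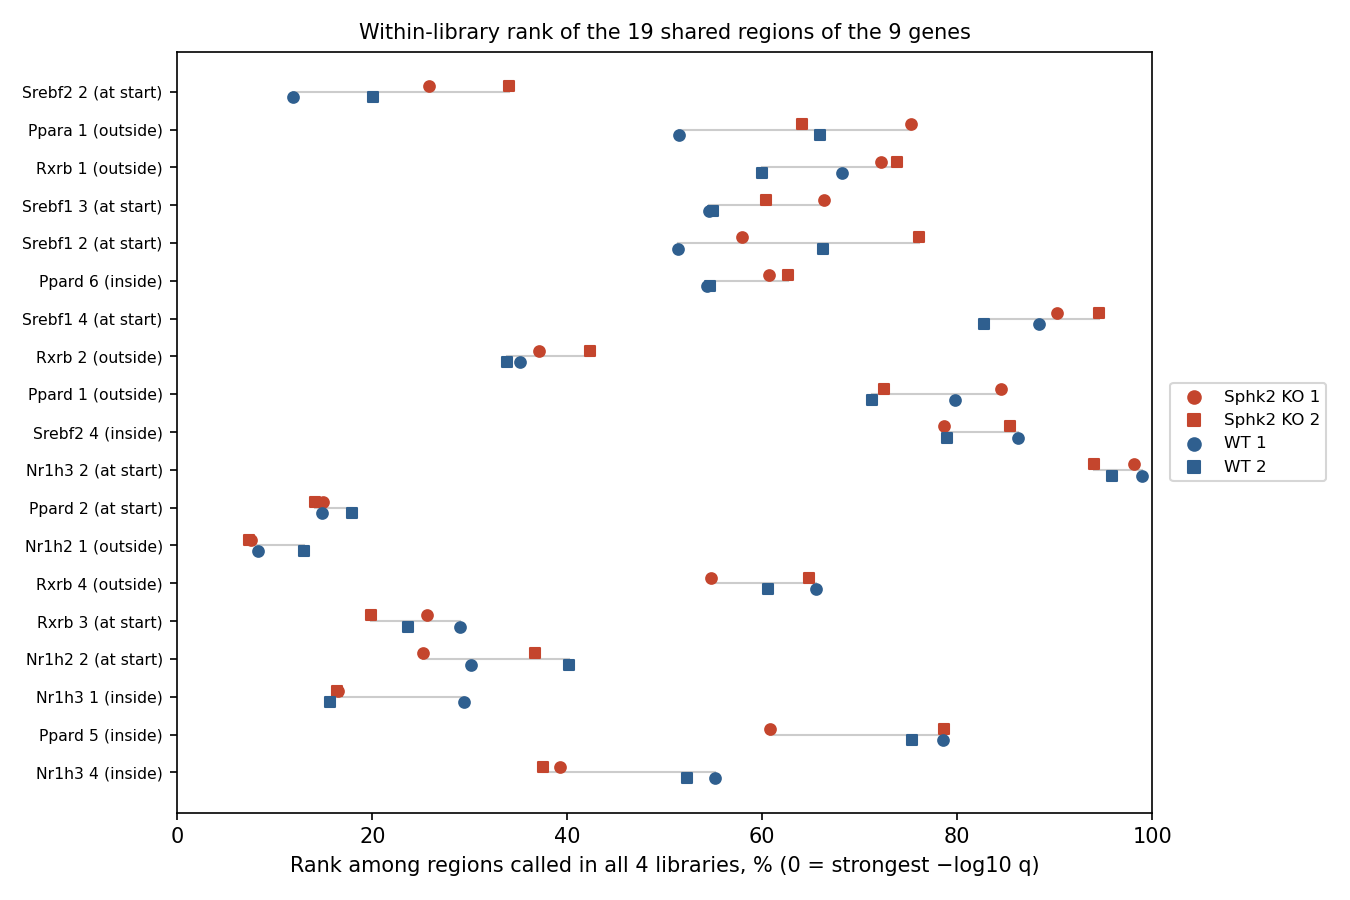
Within-library rank by −log10 q, as a percentage of the 16973 regions called in all 4 libraries, for the 19 such regions of the 9 genes (circles replicate 1, squares replicate 2, Sphk2 KO above WT), ordered by the difference Sphk2 KO minus WT. The Srebf2 start stands at the top with 25.8% and 34.0% in Sphk2 KO against 11.9% and 20.1% in WT, and the Acp2 start (Nr1h3 region 4) at the bottom with 39.3% and 37.5% in Sphk2 KO against 55.2% and 52.3% in WT.

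Target genes of the same factors were described from lists drawn from general knowledge, but chosen with earlier results of these data known. Of 20 SREBP target genes, 14 and 14 had a start-site peak in the Sphk2 KO libraries and 15 and 17 in the WT libraries. Among all protein-coding genes, 43.5% and 48.2% had one in Sphk2 KO and 48.9% and 49.9% in WT. The SREBP target genes held 15 start regions called in all 4 libraries, of which 8 ranked lower in both Sphk2 KO libraries and 1 ranked higher (53.3% and 6.67%, against 22.9% and 17.2% of all start regions). The median difference was 1.49 percentage points, against 0.454 over all start regions, and with ranks by fold enrichment the counts were 6 lower and 1 higher, against 18.7% and 16.0% of all start regions. The count of higher regions was 4 without Sphk2 KO replicate 1 or WT replicate 1 and 2 without WT replicate 2, and over the 4 repeats with a library left out 8 to 10 were lower. Fewer ranks can then overlap, so these repeats could hardly lower a count. The shares over all start regions were not computed for them. Among the regions that ranked lower were those at Stard4, a cholesterol carrier, and at Lss and Sqle, enzymes of sterol synthesis.

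Stard4 ranked at 57.8% and 53.8% in Sphk2 KO and at 33.0% and 40.1% in WT (difference 19.3), with −log10 q of 17.0 and 39.3 in Sphk2 KO and 53.8 and 50.5 in WT. Lss ranked at 57.4% and 55.5% in Sphk2 KO and at 34.2% and 45.6% in WT (16.6). Sqle ranked at 23.1% and 16.3% in Sphk2 KO and at 11.1% and 11.9% in WT (8.15). Smaller differences towards weaker rank were found at Acly (3.19), which makes cytosolic acetyl-CoA from citrate, at Hmgcs1 (2.15) and at Acss2 (1.41), which makes acetyl-CoA from acetate. All of these were below 4.31, the median size of the difference, in either direction, over shared regions within 10 kb of a gene. Ranked by fold enrichment, Hmgcs1 and Acss2 overlapped between genotypes, and Acly was still lower in Sphk2 KO. Fdps, another enzyme of the pathway, ranked higher in Sphk2 KO (−5.45), and Fasn, the fatty acid synthase, overlapped (0.0825). The genes named in these sentences were chosen after their values were seen.

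Promoters of 12 of the 20 SREBP target genes were searched, and only the exact letters TCACCCCA counted as the sterol element core. Among these 14 promoters only that of Hmgcs1, an early enzyme of the sterol pathway, held it, with its first base at position −137. Over all promoters the core occurred in 1.26%. The Hmgcs1 promoter is printed with that of Lss, whose rank differed more and which held no such core, in the same layout as the promoters of the 9 genes.
Hmgcs1 start 1, chr13:119690101-119690350, plus strand: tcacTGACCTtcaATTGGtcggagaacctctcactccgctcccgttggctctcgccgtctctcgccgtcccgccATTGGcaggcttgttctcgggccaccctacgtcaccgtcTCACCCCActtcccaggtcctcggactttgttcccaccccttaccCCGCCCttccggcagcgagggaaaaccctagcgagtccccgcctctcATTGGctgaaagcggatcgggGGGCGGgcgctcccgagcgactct
Lss start 1, chr10:76531355-76531604, plus strand: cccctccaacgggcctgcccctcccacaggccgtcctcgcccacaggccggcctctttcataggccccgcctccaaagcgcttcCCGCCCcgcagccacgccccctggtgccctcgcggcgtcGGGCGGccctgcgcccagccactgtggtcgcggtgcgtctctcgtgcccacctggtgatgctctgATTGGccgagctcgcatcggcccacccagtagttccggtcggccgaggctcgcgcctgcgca
The Hmgcs1 promoter also held 3 CCAAT boxes, 2 GC boxes and 1 receptor half-site, and that of Lss 1 CCAAT box and 2 GC boxes. Both promoters were overlapped by a peak in all 4 libraries.

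Counts differed from list to list. Among 11 start regions of PPAR target genes called in all 4 libraries, 1 ranked lower in Sphk2 KO and 4 ranked higher (9.09% and 36.4%, against 22.9% and 17.2% of all start regions). The 4 higher ones were Angptl4, a secreted inhibitor of lipoprotein lipase (−11.7), Slc25a20, the carnitine carrier (−9.71), Cpt1a, which commits fatty acids to oxidation (−9.36), and Plin2, a lipid droplet protein (−6.44). Cpt1a ranked at 47.9% and 48.1% in Sphk2 KO and at 57.4% and 57.4% in WT. Among 8 start regions of LXR target genes none ranked lower and 3 (37.5%) ranked higher: Abcg1, a cholesterol exporter (−14.0), Arl4c (−7.12) and Lpcat3, a phospholipid-remodelling enzyme (−3.21). Abca1, the other main cholesterol exporter, overlapped between genotypes at 50.8% and 39.7% in Sphk2 KO and 37.5% and 43.0% in WT. Scd2 (14.8) and Apoe (10.1) differed towards weaker rank in Sphk2 KO, also with overlapping ranks. The median difference of the LXR target list was −0.749 percentage points, against 0.454 over all start regions. By fold enrichment the counts were 2 lower and 4 higher for PPAR targets and 1 lower and 1 higher for LXR targets, against 18.7% lower and 16.0% higher over all start regions. No test compared one list with another.

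Genes that process SREBPs had 11 start regions called in all 4 libraries, of which 2 ranked lower in Sphk2 KO and 2 higher (18.2% each, near the 22.9% and 17.2% of all start regions). Scap, the escort of SREBPs to the Golgi, ranked at 31.8% and 33.4% in Sphk2 KO and 23.8% and 29.9% in WT (5.72), and Mbtps1, a protease that cuts them, at 11.5% and 10.4% in Sphk2 KO and 12.7% and 19.2% in WT (−4.99). Insig1, which holds Scap in the endoplasmic reticulum, overlapped. Coactivators and corepressors of the receptors had 12 such regions, 4 lower (33.3%) and 2 higher (16.7%), with the largest difference at Ncoa1, a coactivator of nuclear receptors, at 85.3% and 89.7% in Sphk2 KO and 57.2% and 65.1% in WT (26.3). Other nuclear receptors, most of them RXR partners, had 6, with 1 lower (Nr1d1) and 1 higher (Nr4a1), or 16.7% each.

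**Figure D4:**
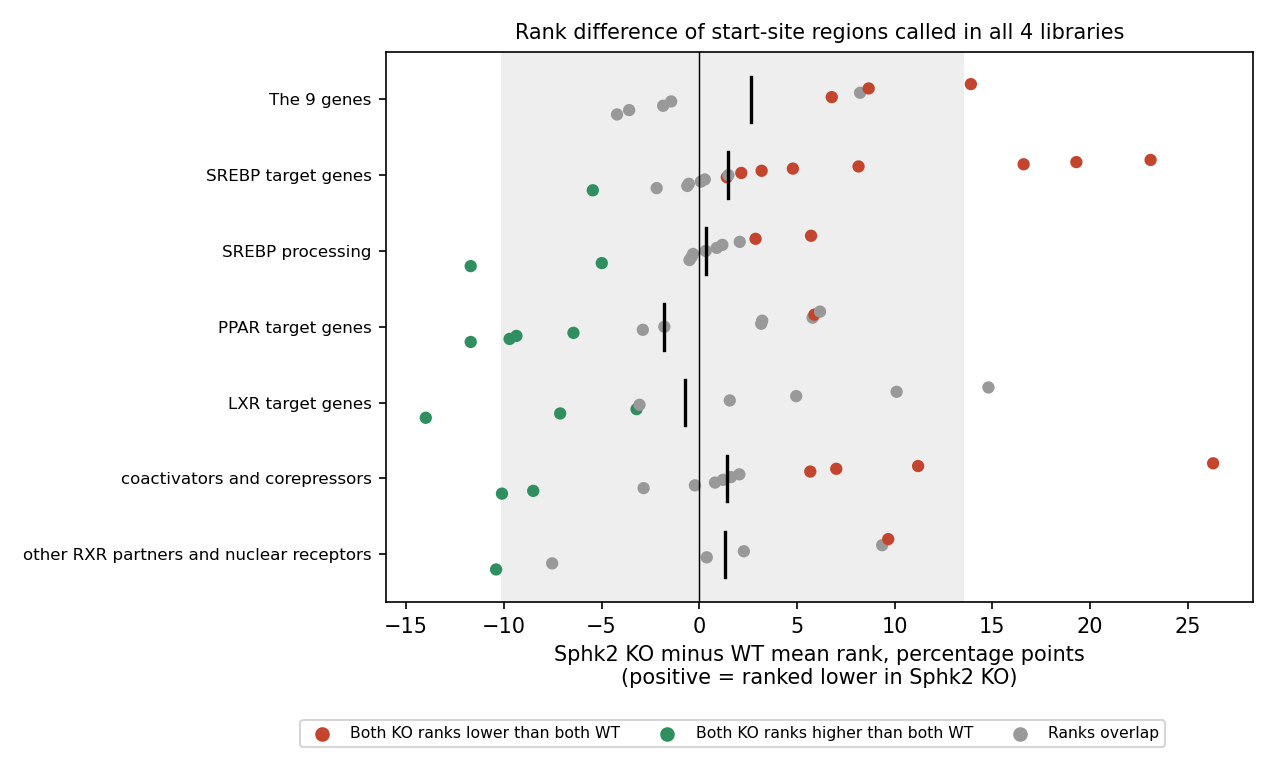
Difference in mean rank, Sphk2 KO minus WT in percentage points, for each start-site region called in all 4 libraries of the 9 genes and of the 6 lists, with list medians as bars and the 5th to 95th percentile of all start regions (−10.1 to 13.5) in grey. Of 15 regions of SREBP target genes 8 are marked lower in Sphk2 KO and 1 higher, and of 11 regions of PPAR target genes 1 is marked lower and 4 higher. Of 11 regions of SREBP processing genes 2 are marked lower and 2 higher. Over all start regions 22.9% ranked lower and 17.2% ranked higher.

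Regions called in one genotype only were about as frequent in these lists as over all regions near genes. Of 225 regions of the 6 lists 13 were WT-only and none was Sphk2 KO-only, against 5.45% and 0.62% of all regions near genes. The WT-only count was 35 without Sphk2 KO replicate 2, 28 without WT replicate 1 and 27 without WT replicate 2, and the Sphk2 KO-only count 10 without Sphk2 KO replicate 1, 4 without Sphk2 KO replicate 2 and 2 without WT replicate 2. Each call then needs fewer libraries, and the shares over all regions near genes were not computed for these repeats. In the PPAR target list the WT-only regions lay in Acadl, an acyl-CoA dehydrogenase (−log10 q 9.51 and 15.1), Cd36, a fatty acid transporter (4.94 and 10.6), and Ehhadh (4.26 and 2.90). In the LXR target list they lay in Apoc2, an apolipoprotein (14.7 and 7.55), and Mertk, a receptor for engulfing dying cells (7.13 and 6.82). In the SREBP target list they lay in Fdft1, the squalene synthase gene (2.38 and 2.90), and at the start of Pnpla3 (1.82 and 9.06), and in the SREBP processing list in Fbxw7, which marks nuclear SREBPs for degradation (3.61 and 9.06). Coactivators and corepressors held 3, among them those at Hdac3 (10.5 and 13.9) and Ppargc1b (8.69 and 8.65), and the other nuclear receptors 2, at Thra (6.31 and 3.36) and Rarg (4.58 and 3.58).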

How the data were processed

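Deposited ATAC-seq peak lists of 2 Sphk2 KO and 2 WT libraries were used. The submitters' processing notes name MACS2, BWA, cutadapt and mm10. Per the file headers, each library's peaks were called alone by MACS 2.1.1.20160309 from paired-end data, with no control library, at a q-value of 0.05, an effective genome size of 1.87e+09, a local background of 10 kb and 1 duplicate kept, which removed 8.24% and 8.99% of fragments in Sphk2 KO and 6.42% and 8.23% in WT. Each deposited list gives the authors' pileup (a coverage signal, not used for comparison), −log10 p-value and −log10 q-value, and fold enrichment (a ratio of pileup to local background). These are the authors' values of single peaks and served to describe, filter and order peaks inside one list. A shift of fragment ends for Tn5 is neither stated nor denied in the labels.

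Peaks sharing at least 1 bp were merged, and a library's value in a region was that of its strongest peak. Coordinates are those of the files (mm10, counted from 1). Starts came from the RefSeq promoter table for GRCm38.p6, and both gene ends stood in for the 4392 protein-coding genes without an entry, such as Stard4 and Sqle. All 9 genes had an entry. Overlap of ranks between genotypes was set beside the same share over all regions, and values per library were compared by exact permutation, two-sided. Alternatives were −log10 q of at least 5 or 10, lists cut to the shortest length, windows of 250 bp around summits, peaks within 500 bp counted as present, gene windows of 0 or 50 kb, starts within 5 kb, ranks by fold enrichment, a block by replicate number, and each library left out. Python 3.11.15, pandas 2.3.3 and numpy 2.4.6 were used, and the scripts were tested on simulated data. The 9 genes and the lists were chosen with earlier results of these data known. Named were all 9 genes, Sphk2, and up to 4 genes per list and direction with a genotype-specific region; other list genes were named after their values were seen, and some list genes are not reported here.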

Additional observations from a re-analysis of the deposited data

How the results depend on the processing

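The difference in called regions, −5.5, was negative under every alternative, from −10.0 (windows of 50 kb, and without Sphk2 KO replicate 2 or WT replicate 1) to −0.5 (equal length), with −3.0 at a −log10 q of at least 5. Regions of the 9 genes called only in Sphk2 KO numbered 0 in place of 1 at a −log10 q of at least 5, at 10 and with lists of equal length, and 1 to 3 with a library left out. Regions called only in WT numbered 1 in place of 2 at a −log10 q of at least 5 and with equal length, and 2 to 9 with a library left out; at 10 there were again 2, but neither region that was WT-only without the threshold passes it. Regions ranked lower in Sphk2 KO numbered 2 in place of 6 by fold enrichment and 8 to 10 with a library left out, and those ranked higher 1 in place of 2 without the window extension, 4 with 50 kb and 4 to 7 with a library left out. The difference in genes with a start peak was 0.0 in place of −0.5 at a −log10 q of at least 10, was −1.5 within 5 kb of a start, turned to 0.5 with equal length, and ran from −1.0 to 0.0 with a library left out. Over the 6 lists, Sphk2 KO-only regions numbered 1 in place of 0 at a −log10 q of at least 5 and with equal length, and 0 to 10 with a library left out, and WT-only regions 7 in place of 13 at a −log10 q of at least 10 and 15 to 35 with a library left out. SREBP target start regions ranked higher numbered 1 to 4 with a library left out. The cause of these shifts was not tested, other than that leaving out a library loosens each call. The rank difference at Srebf1 start 3 ran from −0.835 to 15.6 with a library left out, at start 2 from 4.78 to 11.5, at start 1 from 4.21 to 10.4 and at the Srebf2 start from 9.52 to 17.7. With replicate number as a block, a pairing the labels do not explain, the difference in called regions was −5.5 (exact sign-flip p = 0.5, the smallest that 2 pairs allow). Depth differed between genotypes, and its part in calls of low-scoring regions, such as those of Pparg and Rxra, was not tested. The single-region repeats and the repeats of the SREBP target counts were added after the data had been seen.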
